A study of Mus musculus with 12 samples.

Results

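Regulatory T cells (Tregs) lacking Ebi3 were compared with wild-type Tregs across the genes of an Affymetrix mouse expression array. The Ebi3_KO group held the 3 arrays labelled Ebi3 –/– Treg and the WT group the 3 arrays labelled Wild type Treg. These are 6 of the 12 arrays of the series, chosen by the genotype in their labels. The other 6 arrays hold Tregs lacking both Ebi3 and Il10 (DKO, n = 3) and Tregs lacking Il10 (Il10_KO, n = 3). They give a second comparison by Ebi3 genotype, DKO against Il10_KO, in which both groups lack Il10 and no array is shared with the first. The labels name 3 batches with 1 array of each genotype, numbered as the replicates are. The T cells were sorted by flow cytometry, used fresh and left untreated. The labels give no strain, age, sex or allele, and do not say whether the deletion is confined to T cells. They do not say either that replicates came from separate animals, so p-values measure the spread between these arrays, which may be technical in part. In all genotypes the sex-linked RNA of batch 3 differed from that of the other batches (values below). Batch 3 is therefore not a technical repeat of them.

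Ebi3 encodes a secreted chain that resembles a soluble cytokine receptor. It pairs with the Il27 chain to form IL-27, a cytokine of antigen-presenting cells, and with the Il12a chain to form IL-35, through which mouse Tregs can suppress other T cells. Tregs are CD4 T cells held in their state by the transcription factor Foxp3, and they also act through IL-10, the inhibitory receptor Ctla4 and other effectors. The comparison asks what else differs in the RNA of Tregs that cannot make Ebi3.

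The start of the targeted gene is shown because its transcript is the one that passed the test. The 280 bases are from RefSeq (GRCm38.p6, chr17:55952373-55952652, plus strand), 250 before the annotated start and the first 30 bases of the transcript in capitals. The arrays hold no measurement on this stretch.
Ebi3: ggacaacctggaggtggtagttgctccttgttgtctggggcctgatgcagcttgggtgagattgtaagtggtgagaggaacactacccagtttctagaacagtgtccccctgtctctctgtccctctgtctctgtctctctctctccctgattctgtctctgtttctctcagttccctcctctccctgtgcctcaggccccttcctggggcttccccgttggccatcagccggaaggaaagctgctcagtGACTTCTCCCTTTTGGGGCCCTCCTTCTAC

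Ebi3 RNA was almost absent from the Ebi3_KO arrays. Its probe set (1449222_at) had MAS5 signals of 3.0, 29.4 and 39.5 in Ebi3_KO, against 1159, 1728 and 1726 in WT (batches 1, 2 and 3). The lowest WT array lay far above the highest Ebi3_KO array, and 2 of the Ebi3_KO arrays lay below their own array's 40th percentile (51.7 and 37.3), while the third was just above its own (37.3). The group means were 24.0 ± 18.8 in Ebi3_KO and 1538 ± 328 in WT (SD, n = 3 each). On the scale used for all tests, log2(signal + 20), Ebi3 fell by 5.23 ± 0.257 (SE; 95% interval -5.79 to -4.68; limma adjusted p = 5.81e-07), with -5.68, -5.14 and -4.87 within the batches. The Il10-deficient arrays gave the same picture. Signals were 15.2, 72.5 and 23.6 in DKO, against 1063, 2057 and 1900 in Il10_KO, and Ebi3 fell by 4.96 ± 0.257 (limma adjusted p = 1.15e-06). Both differences are compressed by the added 20 and by the low level in the knockouts. Their own difference was 0.27 ± 0.363 (limma adjusted p = 1.0), so the loss of Ebi3 signal did not differ detectably with the Il10 genotype. No probe set lies in a part of the gene known to be deleted, since the allele is not given, but the labels and the Ebi3 signal agree on all 12 arrays.

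**Figure D1:**
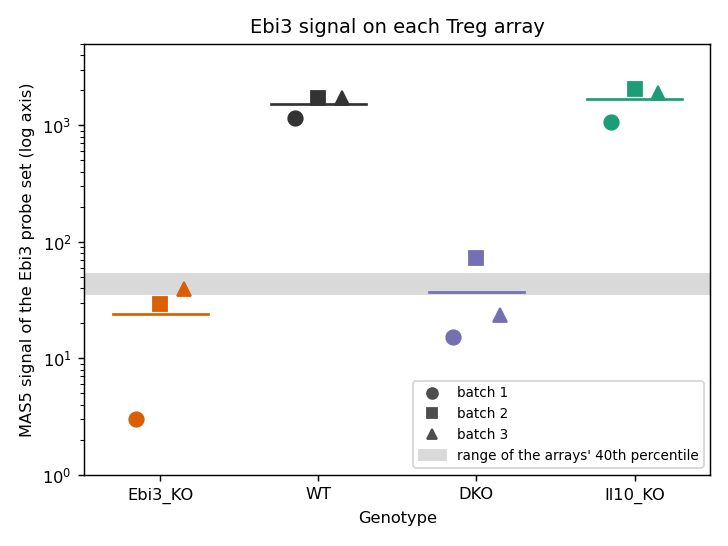
MAS5 signal of the Ebi3 probe set on each array (vertical axis, log scale) by genotype, with Ebi3_KO left of WT and DKO left of Il10_KO; points are arrays shaped by batch, lines are group means, and the grey band spans the arrays' 40th percentiles. The 6 arrays of genotypes without Ebi3 lie between 3.0 and 72.5 and the other 6 between 1063 and 2057.

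No other gene passed the test. Of 31235 tested probe sets, 0 were called higher in Ebi3_KO (0%) and 1, that of Ebi3, was called lower (0.0032%) by limma with batch in the model. At an unadjusted p under 0.05 there were 1658 (5.31%), 700 higher (2.24%) and 958 lower (3.07%). Without the batch term there were 439 at that level (1.41%), 184 higher (0.589%) and 255 lower (0.816%), and Ebi3 was again the single call. The differences were small. Of all tested, 54.3% lay below 0 and 45.7% above. The median was -0.028 on the log2 scale, the median size was 0.189, and 95% lay within 0.732 of 0. The 3 Ebi3_KO arrays stood apart from the 3 WT arrays for 1302 probe sets (4.17%), 611 of them higher (1.96%) and 691 lower (2.21%). The difference had 1 sign in all 3 batches for 8240 (26.4%). The number of arrays limits what could be seen. The distance from a difference to the end of its 95% interval had a median of 0.422 for the 16332 probe sets with a mean signal of at least 200, and 0.587 over all tested, and larger differences also failed the adjusted test, among them some over 1 on the log2 scale. In DKO against Il10_KO likewise only Ebi3 was called (0.0032%; 1091 probe sets, or 3.49%, at an unadjusted p under 0.05), and the interaction of the Ebi3 and Il10 genotypes gave 0 calls (0%; 1232 probe sets, or 3.94%, at an unadjusted p under 0.05).

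**Figure D2:**
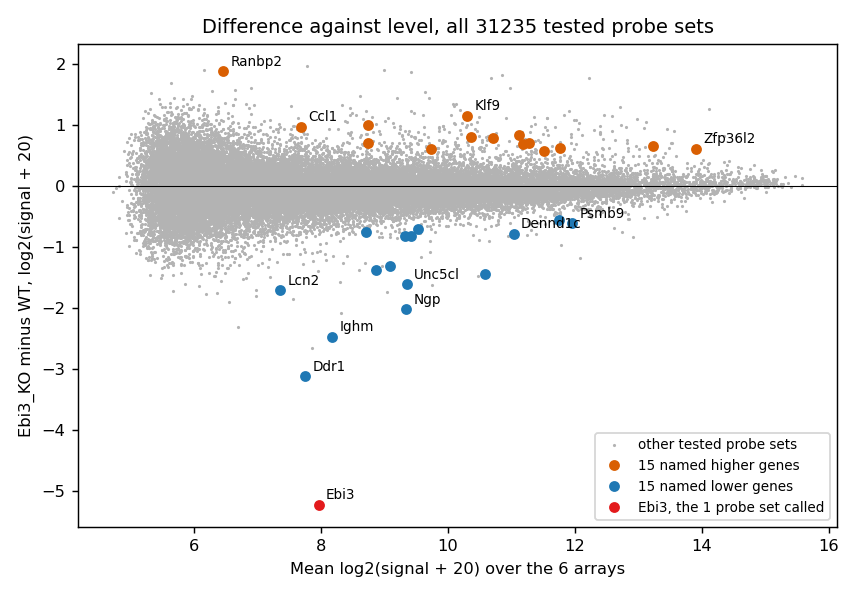
Log2 difference of Ebi3_KO minus WT (vertical axis) against the mean log2(signal + 20) over the 6 arrays (horizontal axis) for the 31235 tested probe sets, with the named genes marked. Ebi3 at -5.23 lies apart from the named genes, which reach 1.88 above and -3.12 below 0.

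The genes described next did not pass the test, and their values are given as measured. They are the 15 higher and the 15 lower genes with the smallest p among those with a mean signal of at least 200 in a group and the same sign in all batches. Their limma adjusted p lay between 0.797 and 0.887 for the higher and between 0.0971 and 0.812 for the lower genes. Because this comparison chose them, the arrays of DKO and Il10_KO are the measurement that the choice did not use. There 8 of the 15 higher genes (53.3%) and 9 of the 15 lower genes (60%) had the same sign, against 51.2% of all tested probe sets, and 0 were called. The lower genes divided by chromosome. Of the 15, 7 lie on chromosome 17, where Ebi3 lies (46.7%, against 4.64% of tested probe sets with a chromosome), and of these 6 kept their sign in DKO against Il10_KO, with a median there of -0.67. Of the other 8, 3 kept it, with a median of 0.06.

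Dennd1c, a DENN-domain protein that activates Rab GTPases, is one of the 7. Its signals were 2040, 1067 and 1786 in Ebi3_KO, against 3096, 2057 and 3112 in WT. The groups did not overlap, and the difference was -0.78 ± 0.135 (limma adjusted p = 0.387), or -0.60, -0.93 and -0.79 by batch. It was -0.54 in DKO against Il10_KO (limma unadjusted p = 0.0015). Unc5cl, a death-domain protein related to netrin receptors, had 174, 260 and 941 in Ebi3_KO, against 1395, 746 and 1356 in WT. The third Ebi3_KO array reached the WT range while the others lay far below it. The difference was -1.61 ± 0.354, and -1.70 in DKO against Il10_KO. Ddr1, a collagen receptor of the tyrosine kinase class, was close to nothing in Ebi3_KO batches 1 and 2 and at a WT level in batch 3. Its signals were 1.3, 5.7 and 689 in Ebi3_KO, against 544, 547 and 779 in WT, and 23.8, 64.0 and 106 in DKO, against 629, 340.1 and 757 in Il10_KO. The differences were -3.12 ± 0.72 and -2.87 (limma adjusted p = 0.812 and 0.819). The other Ddr1 probe sets read between -1.49 and 0.21. Gtpbp2, a GTP-binding protein of stalled-ribosome rescue, had 287, 99.0 and 650.4 in Ebi3_KO, against 983, 475 and 845 in WT. Its difference was -1.38 ± 0.338, and -1.59 in DKO against Il10_KO, on the probe set 1442305_at. The other Gtpbp2 probe sets gave 0.05, -0.15 and 0.18. Psmb9, a catalytic subunit of the immunoproteasome encoded in the MHC, had 4006, 1799 and 4443 in Ebi3_KO, against 7024, 2863 and 5748 in WT. It read lower within each batch, by a mean of -0.61 ± 0.138, and -0.67 in DKO against Il10_KO. Treml2, a receptor of the TREM family, read -0.82 ± 0.197 and the small GTPase gene Rhoq -0.82 ± 0.2, but -0.23 and 0.06 in DKO against Il10_KO.

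The chromosome as a whole was then read in both comparisons. On chromosome 17 without Ebi3, 88 of 1173 tested probe sets had an unadjusted p under 0.05 in Ebi3_KO against WT (7.5%; 26 higher and 62 lower), against 5.16% of 24143 on other chromosomes. In DKO against Il10_KO there were 109 (9.29%) on chromosome 17, against 3.02% elsewhere. The 33 probe sets at that level in both make up 37.5% of the first list and 30.3% of the second, and 33 of 33 had the same sign. On the other chromosomes 92 were shared, 7.39% of the first list and 12.6% of the second, and 50 of them had the same sign. The comparisons share no arrays, but they share the batches and the estimate of the spread. No gene of chromosome 17 other than Ebi3 was called, and its median difference was -0.03 on the log2 scale, as on the other chromosomes.

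Genes of chromosome 17 at that level in both comparisons with a signal of at least 200 numbered 28 with Ebi3, 5 higher and 23 lower, each counted by its probe set of smallest p. They are named here after their values were seen. In the reference order of 686 tested genes on the chromosome, 25 stand before Ebi3 and 2 after it, from 469 places before to 39 places after. Of the tested genes 521 stand before Ebi3 and 164 after. Zfp52, a zinc finger gene, had 716, 245 and 3123 in Ebi3_KO, against 2654, 2058 and 2349 in WT. The DKO arrays had 629, 347 and 363, against 2908, 1898 and 2544 in Il10_KO. It was low on 5 of the 6 arrays without Ebi3, and the third Ebi3_KO array was the exception. H2-M3, a nonclassical MHC class I gene, had 1672, 1037 and 4644 in Ebi3_KO, against 3996, 2205 and 4858 in WT, which gives -0.79 over the batches and -1.40 in DKO against Il10_KO. Eme2, a subunit of a structure-specific endonuclease, had 65.6, 11.9 and 334 in Ebi3_KO, against 318, 325 and 372 in WT. Here too the third Ebi3_KO array lay with the WT arrays. Riok2, a kinase of ribosome assembly, had 647, 320.2 and 983 in Ebi3_KO, against 1140, 1163 and 1082 in WT. Its groups did not overlap (-0.91, and -1.34 in DKO against Il10_KO). The zinc finger gene Zfp955b stood on the higher side without overlap, at 613, 709 and 587 in Ebi3_KO, against 354, 444 and 335 in WT (0.73, and 0.57 in DKO against Il10_KO). Kat2b, a histone acetyltransferase, read 0.50 and 0.82, and Pim1, a kinase induced by cytokines, 1.19 and 1.28. Of Pim1 the batch values were 2.66, 1.52 and -0.59, so that it too turned in batch 3. For several of these genes other probe sets disagree. A brighter Pim1 probe set read 0.27, and -0.20 in DKO against Il10_KO. The other Eme2 probe sets read 0.15 and -0.02, those of Riok2 -0.31 and 0.00, and that of Zfp955b -0.07. Abcf1, Zfp942 and Stub1 were counted as lower, but their brightest probe sets read 0.01, 0.07 and -0.16. In DKO against Il10_KO those probe sets read 0.02, 0.18 and 0.05. Zfp945, a zinc finger gene counted as lower (-2.09, and -3.80 in DKO against Il10_KO), has a second probe set at that level in both comparisons with the opposite sign (0.79, and 1.61 in DKO against Il10_KO).

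The third Ebi3_KO array thus carried WT-like values for many of these genes while its Ebi3 signal was low. Among the 27 genes without Ebi3, the difference in the direction seen in DKO against Il10_KO was smallest in batch 3 for 25, with medians of 0.81, 1.0 and 0.17 by batch. In DKO against Il10_KO itself it was smallest in batch 3 for 10, with medians of 0.72, 0.8 and 0.95. These 27 were chosen on both comparisons, so the values describe them only. The wider set of 109 chromosome 17 probe sets, chosen on DKO against Il10_KO alone, had the same sign in Ebi3_KO against WT for 74.3% in batch 1, 72.5% in batch 2 and 63.3% in batch 3, with medians in that direction of 0.47, 0.50 and 0.11. The 728 probe sets of other chromosomes chosen in the same way had 52.1%, 53.4% and 50.3%. Without the third Ebi3_KO array limma called 8 lower probe sets in place of 1. The named ones were Ebi3, Ddr1 (-4.51), Zfp52 (-2.44), Gtpbp2 (-1.96), Eme2 (-2.73) and Unc5cl (-2.20), all on chromosome 17, with limma adjusted p between 3.23e-06 and 0.0127. A further 2 carry no single gene name. The labels put this array in no other genotype, and it was kept in all main values.

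**Figure D3:**
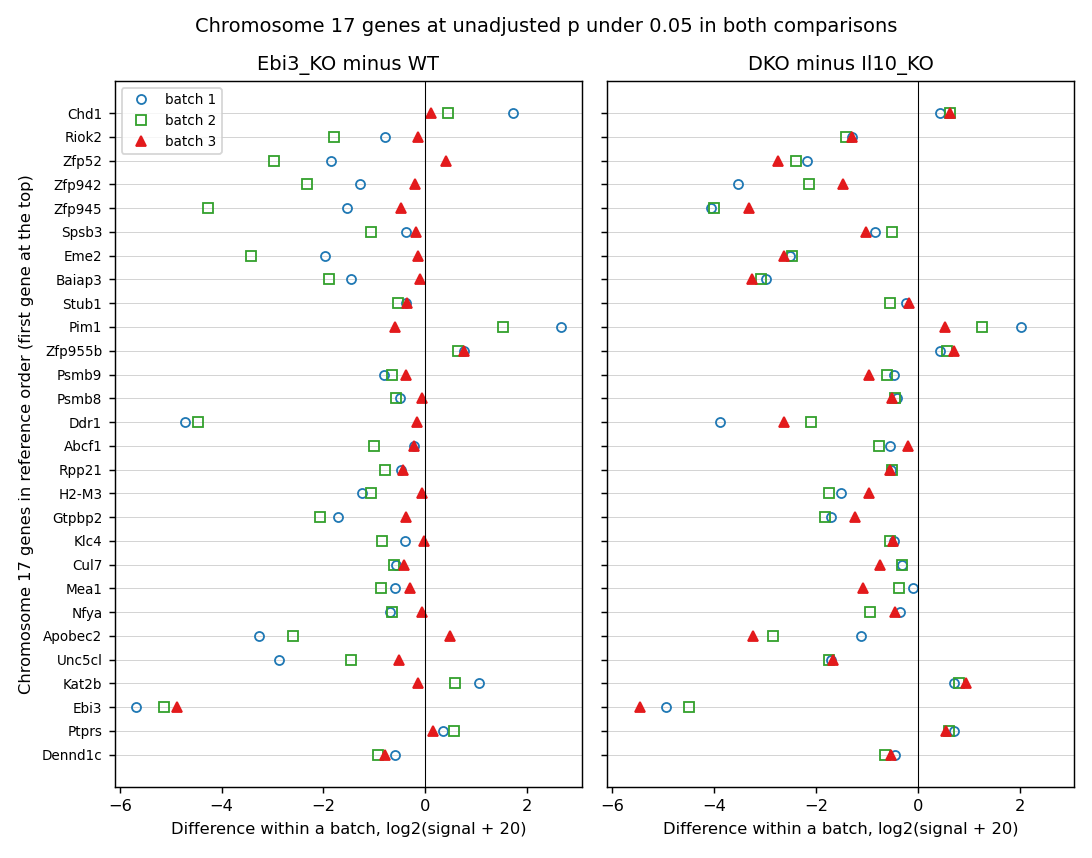
Log2 differences within each batch for the genes of chromosome 17 at an unadjusted p under 0.05 in both comparisons, Ebi3_KO minus WT beside DKO minus Il10_KO; rows are genes in reference order, and the markers stand for the batches. Ebi3 and several other genes, among them Dennd1c, Psmb9, Cul7 and Rpp21, are low in all 3 batches of both comparisons. Taken in the direction of DKO minus Il10_KO, Ebi3_KO minus WT is smallest in batch 3 for 25 of the 27 genes without Ebi3. Its median in that batch is 0.17. Each gene is shown by its probe set of smallest p, and for several genes other probe sets disagree.

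The nearest genes around Ebi3 showed no common direction. Of 40 neighbours, the 20 nearest with a tested probe set on each side, 18 were above 0 and 22 below, with a median of -0.08, and 0 were called (0.0032% of all tested). The immediate neighbours Zfp119b and Yju2 read -0.32 and -0.18. An unadjusted p under 0.05 was reached by 5, namely Unc5cl, Apobec2 (-1.80, of the cytidine deaminase family), Nfya (-0.47, a subunit of the CCAAT-binding factor), Kat2b and the receptor phosphatase gene Ptprs (0.36). They are 12.5% of the neighbours, against 5.31% of all tested probe sets and 7.5% of chromosome 17. All 5 had the same sign in DKO against Il10_KO, as had 24 of the 40.

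Of the lower genes on other chromosomes, 4 encode proteins of neutrophil granules or cytoplasm. Ngp, a neutrophil granule protein, had 192, 139 and 972 in Ebi3_KO, against 1277, 556 and 2925 in WT. Every Ebi3_KO array lay below the WT array of its batch, though batch 3 was high in both groups. The difference of -2.02 ± 0.281 had the smallest limma adjusted p after Ebi3 among named genes, at 0.0971. S100a8, a calcium-binding protein that makes up much of the neutrophil cytoplasm, had 524, 614 and 2333 in Ebi3_KO, against 1860, 1297 and 6481 in WT (-1.44 ± 0.257). Its partner S100a9 had 185, 241 and 741, against 606, 435 and 2136 in WT (-1.31 ± 0.271). Lcn2, an iron-siderophore binding protein of the granules, had 58.1, 21.7 and 210 in Ebi3_KO, against 234, 138 and 626 in WT (-1.71 ± 0.397). The same genes read 0.85, 0.32, 0.09 and 0.58 in DKO against Il10_KO.

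The neutrophil marker list, which holds these 4 genes, lay mostly below 0. Of 16 tested markers 15 were below 0 in Ebi3_KO, with a median of -0.92 (all tested probe sets: -0.03), and 12 were lower in all 3 batches. The batch medians were -1.14, -0.90 and -0.79. The median was -0.68 without WT replicate 1, the lowest in size of those with 1 array left out. The summed signal of the list was 2174, 2200 and 9665 in Ebi3_KO, against 6062, 4156 and 19624 in WT, so its range in Ebi3_KO overlapped that in WT across batches and lay below it within each. No neutrophil marker was at 0, the lowest signal being 2.1 (Mmp8, neutrophil collagenase). Camp, an antimicrobial peptide of the granules, read -1.23 ± 0.312, Ltf, lactoferrin, -1.09 ± 0.288 and Mpo, myeloperoxidase, -0.74 ± 0.27. The exception was Mmp9, a secreted protease, at 401, 332 and 293 in Ebi3_KO, against 193, 254 and 289.9 in WT (0.45). Mmp9 was also the 1 marker of 16 without overlap on the higher side (1.96% of all tested). On the lower side 0 were without overlap (2.21% of all tested). No marker was called (0.0032% of all tested). In DKO against Il10_KO all 16 were above 0, with a median of 0.51, and the summed signal was 3497, 5526 and 23164 in DKO, against 4421, 2426 and 19751 in Il10_KO. The part of neutrophil RNA in any other difference was not tested. In sorted bulk cells, fewer cells of a type and less RNA per cell cannot be told apart.

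Markers of other cells, apart from the few erythroid ones, gave smaller or less even values. The monocyte and macrophage list had a median of 0.11 (9 of 12 above 0), the dendritic cell list -0.00, the CD8 T and NK cell list -0.01 and the plasma cell list -0.13. B cell markers had a median of -0.18 with batch medians of 1.08, -0.45 and -0.75. The 3 tested erythroid markers, of 10 listed, were all below 0, with a median of -1.07 and batch medians of -0.95, -2.07 and -0.59. Alas2, the first enzyme of haem synthesis in red cells, read -1.55 ± 0.507. The signals of the 3 were dim (Alas2 means of 39.6 in Ebi3_KO and 139 in WT), and the list median was 0.42 in DKO against Il10_KO. The Treg and CD4 T cell markers were present on every array at high signals, 5 above and 5 below 0 with a median of 0.02. Foxp3 had 6215, 7390 and 6301 in Ebi3_KO, against 7362, 6153 and 5391 in WT. These overlapped, and the difference was 0.08 ± 0.149 (95% interval -0.24 to 0.40). Batch 3 stood apart in all genotypes. Xist, the RNA of the inactive X chromosome, read 4567 in Ebi3_KO, 3620 in DKO, 6441 in Il10_KO and 3679 in WT there, against at most 132 in the other batches, and the Y-linked Eif2s3y was at most 43.0 there and at least 2985 elsewhere. The monocyte list summed to 29425 in Ebi3_KO and 28753 in WT in batch 3, and to between 3988 and 5855 on the other arrays of these genotypes. In DKO it summed to 43621 and in Il10_KO to 52288 in batch 3.

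**Figure D4:**
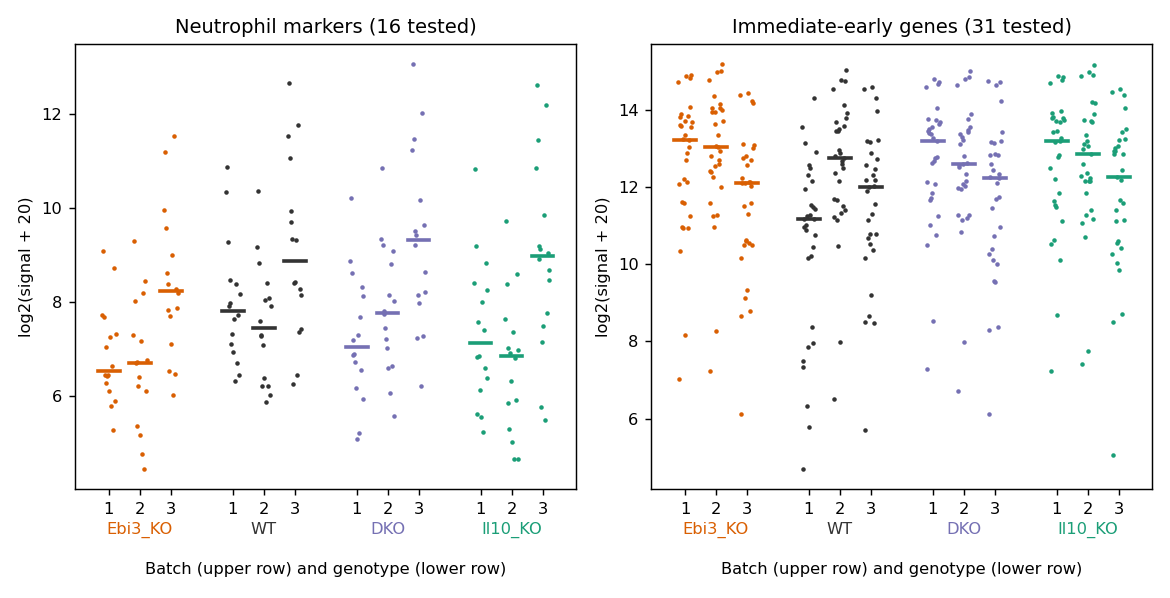
Level of each neutrophil marker and of each immediate-early gene on each array (points, vertical axis in log2(signal + 20)), by genotype and batch, with Ebi3_KO left of WT and DKO left of Il10_KO; bars are the medians. The neutrophil median of each Ebi3_KO array lies below that of the WT array of its batch, and among immediate-early genes the median of the WT array of batch 1, at 11.17, lies below the other 11 arrays.

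Of the remaining lower genes, Scd2, a desaturase of fatty acid synthesis, had 2227, 2912 and 3376 in Ebi3_KO, against 3840, 3842 and 4766 in WT. The groups did not overlap, but the difference of -0.56 ± 0.124 had a limma adjusted p of 0.812 and was -0.01 in DKO against Il10_KO. Capn3, a calpain protease, was also without overlap, at 628, 407 and 686 in Ebi3_KO, against 1102, 726 and 994 in WT (-0.71 ± 0.172, and -0.07 in DKO against Il10_KO). Mean signals in Il10_KO, which keeps Ebi3, were 3083 for Scd2 and 740 for Capn3. They were 4149 and 941 in WT, and 2838 and 573.5 in Ebi3_KO. Ndufaf3, an assembly factor of respiratory complex I, read -0.76 ± 0.182. Ighm, the heavy chain of IgM, read -2.47 ± 0.556 on its probe set 1425385_a_at, with 38.1, 48.1 and 441 in Ebi3_KO, against 235, 847 and 1385 in WT. Its brighter probe sets read -0.07 and 0.04, so the Ighm probe sets disagree.

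Of the 15 higher genes, Ccl1, the chemokine ligand of Ccr8, had 270.1, 249 and 286 in Ebi3_KO, against 148, 77.7 and 175 in WT. The Ebi3_KO arrays all lay above the WT arrays, by 0.97 ± 0.219 (limma adjusted p = 0.812), with 0.20 in DKO against Il10_KO. Tnfsf11, the TNF family ligand RANKL, had 2864, 4042 and 2733 in Ebi3_KO, against 1614, 2307 and 1936 in WT. It was higher without overlap by 0.71 ± 0.162, with 0.82, 0.80 and 0.49 by batch and 0.24 in DKO against Il10_KO. A second, dim Tnfsf11 probe set read -0.02. Gpr183, a receptor for oxysterols that guides lymphocyte position, had 4524, 4888 and 3578 in Ebi3_KO, against 2601, 3300 and 2448 in WT. It too showed no overlap (0.63 ± 0.166), and read -0.12 in DKO against Il10_KO. A dimmer Gpr183 probe set read 0.14. Nrn1, neuritin, a lipid-anchored surface protein found on Tregs, had 2446, 3861 and 2674 in Ebi3_KO, against 1550, 1825 and 2091 in WT. It read 0.69 ± 0.174, and 0.49 in DKO against Il10_KO (limma unadjusted p = 0.0147). These 4 were the ones of the 15 without overlap (1.96% of all tested on the higher side). The choice by small p and by the same sign in all batches favours genes without overlap, so this share is no measure of an excess. In Il10_KO, which keeps Ebi3, the mean signals were 225 for Ccl1, 2441.5 for Tnfsf11, 5349 for Gpr183 and 1815 for Nrn1. The WT means were 133, 1952, 2783 and 1822, and those of Ebi3_KO 268.5, 3213, 4330 and 2994. Only Nrn1 was thus at its WT level in Il10_KO. Abcb1a, an efflux transporter, read 0.61 ± 0.16, but -0.47 in DKO against Il10_KO.

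Klf9, a transcription factor of the Krüppel-like family, had 2186, 4768 and 608 in Ebi3_KO, against 530.4, 2739 and 381 in WT, or 2.00, 0.80 and 0.65 by batch (1.15 ± 0.272). Spry1, an inhibitor of growth factor signalling, read 1.47, 0.46 and 0.60 by batch (0.84 ± 0.202). Kdm6b, a histone demethylase, read 1.37, 0.88 and 0.19 (0.81 ± 0.212). Without WT replicate 1 the differences were 0.73 for Klf9, 0.54 for Spry1 and 0.52 for Kdm6b, each under the main value by over 1.5 times. Other higher genes also fell, Zfp36l2 from 0.61 to 0.42, Egr2 from 0.57 to 0.44, Tsc22d2 from 0.78 to 0.61 and Zbtb10 from 1.00 to 0.82. Ranbp2, Ccl1 and Gpr183 rose, and the rest of the 15 fell less. Egr2, a transcription factor induced through the T cell receptor, had 3105, 4904 and 2913 in Ebi3_KO, against 1859, 3219 and 2259 in WT (0.57 ± 0.137). Jund, a subunit of the AP-1 factor, had 15181, 16795 and 6852 in Ebi3_KO, against 9053, 13089 and 3774 in WT (0.65 ± 0.164). Against Il10_KO the DKO arrays read -0.09 for Klf9, 0.01 for Spry1, 0.19 for Kdm6b, -0.04 for Egr2 and -0.33 for Jund. In the same order, the mean signals of Il10_KO, which keeps Ebi3, were 2055.5, 3457, 1542, 3469 and 11882.5. Those of WT were 1217, 1890.5, 1123, 2446 and 8639, and those of Ebi3_KO 2521, 3106, 2057, 3641 and 12943. Il10_KO was thus also above WT for these genes. Zbtb10, a zinc finger gene, had 690.0, 869 and 327 in Ebi3_KO, against 255, 439 and 199 in WT (1.00 ± 0.202, and 0.03 in DKO against Il10_KO). Its mean signal was 563.5 in Il10_KO, against 628.5 in Ebi3_KO and 297 in WT. Tsc22d2 read 0.78 ± 0.179, the transporter gene Abcc5 0.70 ± 0.169 and Zfp36l2, which marks mRNAs for decay and lies on chromosome 17, 0.61. A brighter Abcc5 probe set read -0.15 and the dimmer ones between -0.19 and 0.49, so the Abcc5 probe sets disagree. Ranbp2, a protein of the nuclear pore, had 481, 43.6 and 130.4 in Ebi3_KO, against 133, 6.0 and 4.4 in WT, a difference of 1.88 ± 0.375 on a dim probe set. Other Ranbp2 probe sets read 0.30, 0.56 and -0.01.

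The immediate-early genes respond first when a T cell receptor is engaged, and they had 30 of 31 members above 0 and a median of 0.82, with 0 called. In all 3 batches 16 members were higher and 0 lower, against 26.4% of all tested probe sets with 1 sign in all batches. A limma unadjusted p under 0.05 was reached by 17, all of them higher, against 5.31% of all tested. The list median rested largely on 1 WT array. By batch it was 2.01, 0.36 and 0.00, and without WT replicate 1 it was 0.15. The list's median level, as log2(signal + 20), was 13.23, 13.04 and 12.10 in Ebi3_KO, against 11.17, 12.76 and 12.01 in WT. Fosb and Atf3, transcription factors of the Fos and ATF families, had 4296 and 1952 in Ebi3_KO of batch 1, against 159 and 60.8 in WT of that batch. In batch 3 they had 1130 and 541 in Ebi3_KO, against 1129 and 383 in WT. Of the 31, 8 were above 0 and 23 below in DKO against Il10_KO, with a median of -0.06. The heat shock and handling stress list followed the same array. Its median of 0.17 (11 of 14 above 0) became 0.05 without WT replicate 1, with batch medians of 0.74, -0.02 and -0.10. Hspa1a, an inducible chaperone, had 7840, 3018 and 5182 in Ebi3_KO, against 585, 7442 and 7884 in WT.

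Of the chains that pair with Ebi3, only Il12a could be read, and it was near background in both genotypes. Il12a, the other chain of IL-35, had 74.8, 6.7 and 85.0 in Ebi3_KO, against 28.9, 14.7 and 59.2 in WT (0.33 ± 0.495). Il12b, the chain shared by IL-12 and IL-23, had 51.8, 41.1 and 48.3 in Ebi3_KO, against 34.8, 32.0 and 39.1 in WT (0.28 ± 0.317). These levels lie around the 40th percentile of the arrays, and the table holds no detection calls, so they cannot be set apart from background. Il23a was below the filter, and Il27 had no probe set with its name alone. Receptors and signalling proteins of the family gave 4 above and 6 below 0, with a median of -0.03. Il27ra, the IL-27 receptor chain, had 3069, 3469 and 3581 in Ebi3_KO, against 3367, 3410 and 3414 in WT, a difference of -0.01 ± 0.14. Il6st, the signalling chain that IL-27 and IL-6 receptors share, read -0.27 ± 0.141, Stat4 0.25 ± 0.161 and Jak2 0.15 ± 0.118. Among genes that IL-27 induces in T cells 5 were above and 11 below 0, with a median of -0.15. Of these Socs3, a feedback inhibitor of cytokine receptors, read 0.29 ± 0.134, Havcr2, the inhibitory receptor Tim-3, -0.69 ± 0.358, and Prdm1, the repressor Blimp-1, -0.47 ± 0.231. Il10 had 1401, 2385 and 574 in Ebi3_KO, against 185, 2940 and 484 in WT. The arrays overlapped widely, the difference was 0.91 ± 0.528 (limma adjusted p = 0.921), and the WT array of batch 1 was again the lowest. Its receptor genes Il10ra and Il10rb read 0.02 ± 0.15 and -0.01 ± 0.133.

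Treg identity genes had 7 above and 11 below 0, a median of -0.04 and 0 called. By batch the median was -0.41, -0.05 and 0.02. At an unadjusted p under 0.05 there were 4 of 18, 1 higher and 3 lower, against 5.31% of all tested. In all 3 batches 5 of the 18 were lower and 0 higher, near the 26.4% of all tested with 1 sign in all batches. Itgae, the integrin CD103, had 2704, 5717 and 4256 in Ebi3_KO, against 5794, 7952 and 3892 in WT (-0.48 ± 0.186), and turned in batch 3. Nrp1, a surface marker of thymic Tregs, read 0.39 ± 0.163, Capg, an actin-capping protein, -0.34 ± 0.155 and Ctla4 0.33 ± 0.189. The suppressive effectors gave 3 above and 11 below 0, with a median of -0.18 and batch medians of -0.51, -0.24 and 0.06. Fgl2, a secreted suppressor protein of Tregs, had 528, 568 and 963 in Ebi3_KO, against 1310, 1377 and 788 in WT (-0.75 ± 0.284). Gzmb, the cytotoxic protease granzyme B, had 594, 871 and 2129 in Ebi3_KO, against 3067, 2169 and 1072 in WT (-0.88 ± 0.411). Both were lower in batches 1 and 2 and higher in batch 3. The list median was -0.02 in DKO against Il10_KO.

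Effector and resting genes gave no common direction. The effector Treg list had 6 above and 8 below 0 (median -0.03). Gata3, a transcription factor of effector Tregs and of Th2 cells, was the 1 member of 14 without overlap (1.96% of all tested on the higher side), at 3221, 3688 and 2777 in Ebi3_KO, against 2495, 2618 and 2371 in WT (0.36 ± 0.128). Klrg1, a receptor of terminally differentiated cells, read 0.55 ± 0.207 and was 0.10, 0.31 and 1.24 by batch. Batf, a transcription factor of effector Tregs, read -0.23. The resting list had 6 above and 5 below 0 (median 0.04; Id3, an inhibitor of E proteins, -0.55 ± 0.216, and Klf2, a factor of T cell trafficking, 0.30 ± 0.199). The effector cytokine list had 5 above and 4 below 0 (median 0.06). Ifng, interferon gamma, had 1896, 1870 and 1351 in Ebi3_KO, against 307, 1667 and 1009 in WT. The WT array of batch 1 again stood lowest, and the difference was 1.04 ± 0.347. Il2 was dim, at 70.5, 291 and 115 in Ebi3_KO, against 47.2, 80.3 and 87.2 in WT (0.80 ± 0.318).

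Proliferation genes lay lower in Ebi3_KO, 26 of 32 below 0 with a median of -0.22, and 0 were called. Tpx2, a spindle assembly factor, had 164, 85.2 and 152 in Ebi3_KO, against 290.0, 247 and 194 in WT (-0.80 ± 0.25). Ccna2, cyclin A, had 268, 418 and 370.3 in Ebi3_KO, against 624, 509 and 468 in WT (-0.58 ± 0.232). With Cdk1, the mitotic kinase (-0.49 ± 0.244), these were the 3 members without overlap, of 32 (2.21% of all tested on the lower side). The list median was -0.40, -0.01 and -0.19 by batch, and -0.04 without the Ebi3_KO array of batch 1. It was 0.31 in DKO against Il10_KO, with 28 of 32 above 0. Interferon response genes had 23 of 30 below 0 and a median of -0.24, but batch medians of -0.69, -0.37 and 0.46. The median turned to 0.01 without WT replicate 1 and to 0.03 without batch 1. Iigp1, an interferon-induced GTPase, had 993, 721 and 2099 in Ebi3_KO, against 2653, 1683 and 2240 in WT (-0.90 ± 0.27), and Oas1a, an antiviral enzyme, read 0.42 ± 0.234.

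MHC and antigen processing genes, 13 of 17 on chromosome 17, had 9 above and 8 below 0 in Ebi3_KO against WT, with a median of 0.02. All 17 were below 0 in DKO against Il10_KO, with a median of -0.19. Tap1, a chain of the peptide transporter, had 5159, 3587 and 5065 in Ebi3_KO, against 7141, 4645 and 7444 in WT. It lay lower within each batch, by a mean of -0.46 ± 0.137, and read -0.17 in DKO against Il10_KO. Psmb8, an immunoproteasome subunit, read -0.38 ± 0.162. Chemokine receptor and homing genes gave 10 above and 8 below 0, with a median of 0.03. Ccr9, the gut-homing receptor, had 457, 447 and 863 in Ebi3_KO, against 992, 909 and 920.0 in WT (-0.72 ± 0.248, without overlap), while Cxcr4 read 1.05 ± 0.484 and 2.82, 0.31 and 0.03 by batch. The TNF family and apoptosis genes had 9 above and 8 below 0 (median 0.05). Fasl, the death ligand of the Fas receptor, read 0.94 ± 0.346, with 2.27, 0.77 and -0.21 by batch, and Mcl1, a survival protein, 0.38 ± 0.151. In all, the 25 lists held 314 tested genes, and the single called member was Ebi3.

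**Figure D5:**
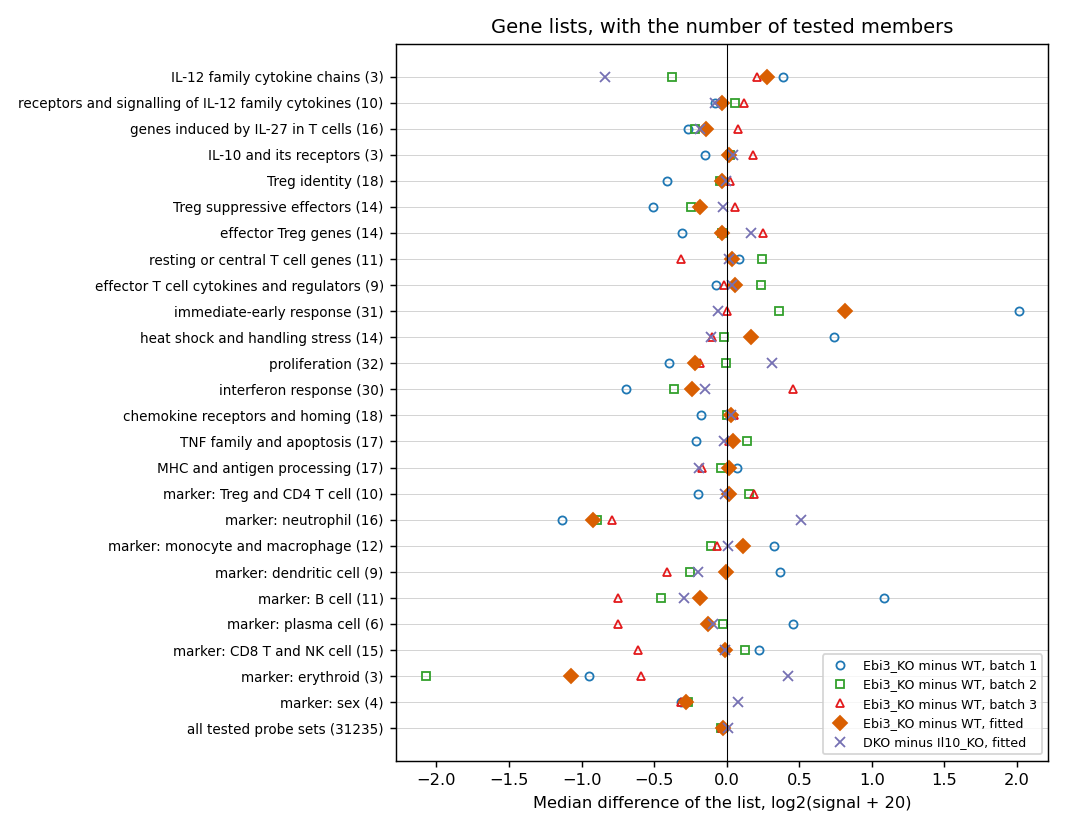
Median log2 difference of each gene list (rows), on the horizontal axis in log2(signal + 20), for Ebi3_KO minus WT (filled diamonds, with open symbols for its 3 batches) and DKO minus Il10_KO (crosses). The neutrophil list lies at -0.92 against 0.51, the proliferation list at -0.22 against 0.31 and the immediate-early list at 0.82 against -0.06.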

How the data were processed

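RNA of sorted Tregs was measured on 12 arrays of the Affymetrix mouse 430 2.0 type, with 3 arrays in each of 4 genotypes. Per the submitters' processing notes, MAS5 and Partek 6.4 were used. Each deposited value is a natural log, taken of the signal with 20 added. This scale was inferred: after exponentiation and subtraction of 20, signals below 200 were multiples of 0.1, and the mean after trimming 2% at each end was the same on every array. They were converted to log2(signal + 20), which understates fold changes of dim probe sets, with no further normalization. Median signals lay between 59.5 and 89.3, and the number of arrays limits the precision.

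Of 45101 probe sets, 64 controls were left out, and 31235 were tested, those at or above an array's 40th percentile in 3 or more cases. The 34945 probe sets with 1 gene symbol were named, and 34741 of these were matched to the reference (GRCm38.p6), used for chromosomes and gene order. All 12 arrays were fitted with limma 3.58.1 in R 4.3.3 (lmFit, eBayes with trend), with genotype and batch as factors and 6 residual degrees of freedom. Adjustment of p-values (Benjamini-Hochberg) covered all 31235, and 0.05 was the threshold. The script was tested on simulated data.

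The replicate number is the labelled batch. After removal of the genotype means, Ebi3_KO and WT arrays of the same number correlated at 0.47 to 0.532 (3 pairs), and those of different numbers at -0.368 to -0.118. With the means removed, positive correlations between same numbers force those between different numbers down, so the latter are no separate evidence.

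Genes named are Ebi3, the 15 higher and 15 lower genes of smallest p with a mean signal of at least 200 in Ebi3_KO or WT and the same sign in the 3 batches, up to 2 members per direction of each gene list and up to 5 neighbours of Ebi3. Others are named where a sentence needed them, after their values were seen. Lists use the probe set of highest mean over all arrays for each gene, and are described by counts and medians with no test. The comparison, lists and rule were chosen with earlier results of these data known.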

Additional observations from a re-analysis of the deposited data

Results flagged for a closer look

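The differences of 3 named genes had opposite signs in the comparisons by Ebi3 genotype, with 1 sign in all 3 batches of Ebi3_KO minus WT and the other sign in all 3 batches of DKO minus Il10_KO. For Ngp, the neutrophil granule protein, the values by batch were -2.62, -1.86 and -1.57 in Ebi3_KO minus WT, and 0.47, 1.71 and 0.38 in DKO minus Il10_KO. The second difference exceeded the first by 2.87 (limma adjusted p = 0.184 for the interaction). For Jund, the AP-1 subunit, they were 0.74, 0.36 and 0.86 in Ebi3_KO minus WT, and -0.30, -0.36 and -0.32 in DKO minus Il10_KO, a change of -0.98 between the comparisons. For Abcb1a, the efflux transporter, they were 0.67, 0.49 and 0.66 in Ebi3_KO minus WT, and -0.74, -0.57 and -0.12 in DKO minus Il10_KO, a change of -1.08. The limma adjusted p of the interaction was 1.0 for Jund and for Abcb1a. None of the 3 passed the test of the difference, and the genes had been chosen for their sign in Ebi3_KO minus WT.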

How the results depend on the processing

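The fall of Ebi3 was called under all 18 alternatives. It read -5.48 to -5.01 with single arrays or batches left out, -3.71 on log2(signal + 100), -6.04 on log2(signal + 5) and -5.14 after quantile normalization. The fit with no replicate block gave -5.23 (limma adjusted p = 0.0015) and the same counts, 0 higher and 1 lower. It had 439 probe sets at an unadjusted p under 0.05 in place of 1658. Leaving out arrays gave 0 to 1 higher probe sets (1, without a single gene name, when WT replicate 2 was out) and 1 to 8 lower, with 8 without Ebi3_KO replicate 3 and 2 without replicate 3 of all genotypes, Ebi3 and Ddr1 (-4.60, limma adjusted p = 0.0289). The cause was not tested. The other alternatives left both counts as they were. Of 540 values of the named genes 536 stayed on their side of the threshold with the same direction, and 4 passed it, those of Unc5cl, Gtpbp2 and Ddr1 without Ebi3_KO replicate 3 and of Ddr1 without replicate 3. Single arrays moved some list medians: without WT replicate 1 the immediate-early median was 0.15 in place of 0.82 and the interferon median 0.01 in place of -0.24. The neutrophil median was -0.56 on log2(signal + 100), -1.10 with a 60th percentile filter and -0.68 without WT replicate 1.

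Alternatives for DKO against Il10_KO and for the interaction were added after the data were seen. In DKO against Il10_KO Ebi3 read -5.20 to -4.72 with arrays left out, -3.67 on log2(signal + 100), -5.50 on log2(signal + 5) and -4.96 with no replicate block (limma adjusted p = 0.00273). Its calls numbered 1 to 16. The 16 came without Ebi3_KO replicate 3, which takes no part in this difference but enters the spread. Of these, 10 lie on chromosome 17 and 6 have no single gene name. Interaction calls numbered 0 to 1. On chromosome 17 without Ebi3, the share at an unadjusted p under 0.05 in Ebi3_KO against WT was 2.73% with no replicate block (other chromosomes 1.26%), 9.04% without Ebi3_KO replicate 3 (5.35%) and 8.44% without replicate 3 (5.08%). Low signals carry no detection call, so levels near the 40th percentile cannot be ranked.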

Other observations

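A pair of probe sets without a single gene name read as low as the chromosome 17 genes in both comparisons. Probe set 1434280_at read -2.65 ± 0.653 in Ebi3_KO against WT (limma adjusted p = 0.812) and -3.25 in DKO against Il10_KO (limma adjusted p = 0.419). Probe set 1428738_a_at read -1.63 ± 0.268 (limma adjusted p = 0.272) and -1.58 (limma adjusted p = 0.287). Without Ebi3_KO replicate 3 they were among the 8 called lower, at -3.87 (limma adjusted p = 0.00212) and -1.98 (limma adjusted p = 0.0191). Their genes are not known here.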
